A study of Mus musculus with 12 samples.

Results

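Of 19572 probe sets assigned to 1 gene symbol each, 121 (0.618%), representing 119 genes, showed opposite doranidazole differences in hypoxia and normoxia in mouse glioma stem cells. They were chosen by the measured signals themselves: the mean log2 signal with doranidazole had to be at least 0.8 below that with PBS in hypoxia, with all 3 treated arrays below all 3 PBS arrays, and at least 0.8 above it in normoxia, with all 3 treated arrays above all 3 PBS arrays. A difference of 1 on the log2 scale is a doubling of the signal. Since the rule used the drug differences at both oxygen levels, those differences are given as descriptions without a test. Rorb and Psd3 entered through 2 probe sets each, and a further 6 probe sets with no single symbol met the same limits and were left out.

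The cells were GSC-H cells, glioma stem cells recovered from late-stage mouse brain tumours that grew from neural stem cells null for Ink4a/Arf and overexpressing H-RasV12. All 4 groups carried that genotype and were grown for 24 h in serum-free medium with EGF and basic FGF. They received 3 mM doranidazole in hypoxia (Hx D, 1% O2), PBS in hypoxia (Hx P), doranidazole at the same dose in normoxia (Nx D, 21% O2) or PBS in normoxia (Nx P), with 3 arrays a group that the labels call biological replicates. Total RNA was measured on Clariom S Mouse arrays, and the cells represent 1 engineered tumour model, with no second line analysed here.

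Doranidazole is a 2-nitroimidazole, a class of drug that cells reduce to reactive products most readily where oxygen is scarce. Cells that lack oxygen stabilise hypoxia-inducible factors and change the output of genes for angiogenesis, glucose use and adhesion to the matrix. Glioma stem cells keep neural stem cell transcription factors while they respond to growth factors, cytokines and guidance cues that also act in the developing brain. The 119 genes were sorted into 12 roles after the members were known, and the most numerous role, transcription and chromatin factors, held 16 of them.

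Among all probe sets with 1 symbol, 2727 met the hypoxia limit for a lowered signal and 724 met the normoxia limit for a raised one. The 121 members were therefore 4.44% of those lowered in hypoxia and 16.7% of those raised in normoxia. At the same limits 279 probe sets were raised at both oxygen levels, 287 were lowered at both, and 7 were raised in hypoxia and lowered in normoxia. The drug difference of the members ranged from -8.53 (Igfbp5) to -0.81 (Irf2bpl) in hypoxia, with a median of -1.60, and from 0.80 (Agrn) to 2.85 (Pdgfc) in normoxia, with a median of 1.07. Over all probe sets the median difference was 0.09 in hypoxia and -0.01 in normoxia. Just inside the limits lay Agrn, Igf1r and Stat6, with normoxia differences of 0.802, 0.803 and 0.804, and just outside lay Rfx5 (0.799), Ptges (0.794) and Ttc23 (0.794), all of which met the hypoxia limit.

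**Figure D1:**
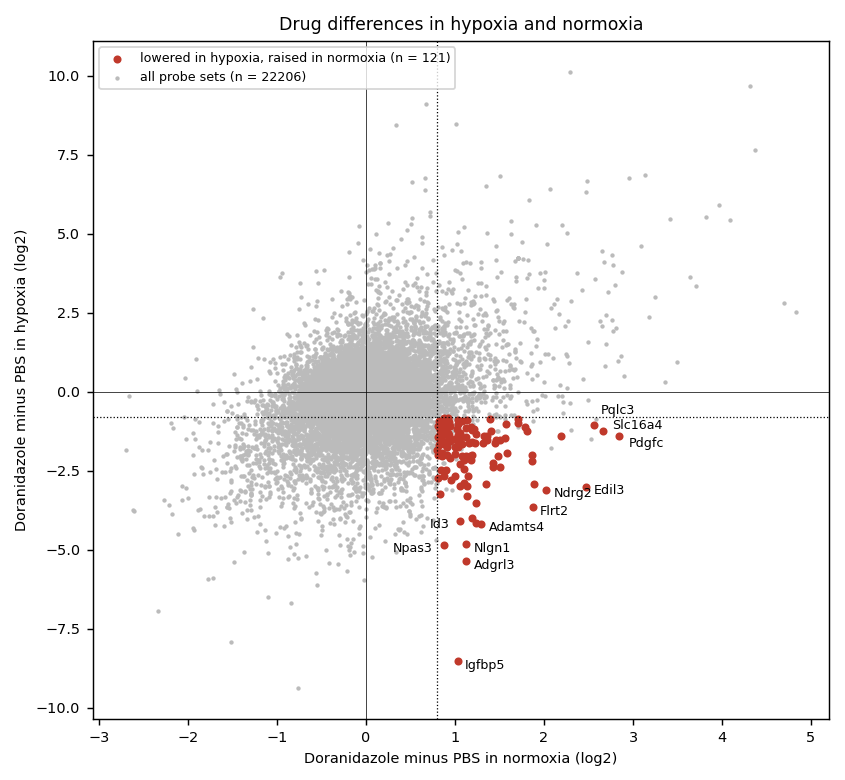
Doranidazole minus PBS in hypoxia (vertical axis, log2) against the same difference in normoxia (horizontal axis, log2) for the 121 members (red) and all 22206 probe sets (grey). Dotted lines mark the limits of 0.8, which the members pass by definition. Igfbp5 lies lowest, at -8.53, and Pdgfc farthest to the right, at 2.85.

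All 121 members had 3 separate treated and PBS arrays at each oxygen level by definition, against 19% of all probe sets with 1 symbol for lower signals in hypoxia and 11.7% for higher signals in normoxia. In the fit over all 22206 probe sets (limma, Benjamini-Hochberg adjusted p under 0.05), 117 members were lower in hypoxia, against 15.1% of all probe sets, and 28 were higher in normoxia, against 1.29% of all probe sets. Same-numbered arrays deviated together in normoxia, and a fit to the 6 normoxic arrays with the replicate number as a block gave 108 members higher in place of 28. Nothing is read from these counts, because the same arrays chose the members. The smallest gap between the treated and the PBS arrays had a median of 0.73 in hypoxia and 0.50 in normoxia. At either oxygen level many members were thus separated by less than a doubling.

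The rule was also applied to 2 arrays of each group and the signs were then read on the array left out. When replicate 1 was left out, 118 of 123 chosen probe sets (95.9%) were lowered in hypoxia and raised in normoxia on that replicate, where 21.1% of all probe sets with 1 symbol had these signs. When replicate 2 was left out the share was 119 of 135 (88.1%), against 22.1% of all, and when replicate 3 was left out it was 163 of 227 (71.8%), against 20.7% of all. The share was lowest on the third replicate, where the median difference over the 227 chosen probe sets was -0.63 in hypoxia and 0.72 in normoxia. On the first it was -1.87 and 1.05 over the 123 chosen there. As the chosen sets differ, whether the replicate or the choice lowered the values was not tested. The chosen sets held 91, 89 and 108 of the 121 members when replicates 1, 2 and 3 were left out. The shares thus cover sets that only partly overlap the members. The shares over all probe sets beside them were not matched for signal.

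The array Hx D 3 stood between the other treated hypoxic arrays and the remaining groups. Over the members the median signal, relative to each probe set's mean over 12 arrays, was -1.51, -1.40 and -0.88 on the Hx D arrays and 0.39, 0.73 and 0.30 on the Hx P arrays. It was 0.96, 0.95 and 1.04 on the Nx D arrays and -0.26, -0.25 and 0.04 on the Nx P arrays. Of the 121 members, 84 had their highest Hx D value on replicate 3 and 58 had their highest Nx P value on replicate 3. The spread of signals was also smaller on the Hx D arrays, whose SD over all probe sets was 3.51, 3.54 and 3.67, against 3.72 to 3.81 on the other 9 arrays. When the arrays were given equal distributions by quantile normalization, 87 of the 121 members still met the rule, and after cyclic loess normalization 96 did.

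The median signal of an array was between 4.65 and 4.88, and 117 of the 121 members had a mean signal above the overall median of 4.74, as did 51.5% of all probe sets with 1 symbol. Markers were read on the same arrays. Cdkn2a, the gene at the Ink4a/Arf locus, was between 1.94 and 2.49 on all 12 arrays, among the dimmest signals. The neural stem cell genes Nes (11.5 to 14.0) and Sox2 (10.0 to 14.7) and the intermediate filament gene Vim (18.2 to 19.1) were bright, whereas the astrocyte gene Gfap (3.17 to 3.92), the myelin gene Mbp (2.45 to 3.10), the neuronal gene Rbfox3 (2.68 to 3.40) and the microglial gene Aif1 (2.08 to 2.80) were below the median on every array. Of 22 neural and glioma stem cell genes, 14 were above the array median on all arrays and 3 below it on all, among them Egfr (3.02 to 3.88). Of the markers of other cells, 14 of 16 microglial and 11 of 13 oligodendrocyte markers were below it on all. The other brain lists were mixed: of 14 astrocyte markers 5 were above and 4 below on all arrays, and of 17 neuron markers 7 were above and 8 below. The mean of the stem cell list was 8.29 to 8.43 on the Hx D arrays, 9.64 to 9.79 on the Hx P arrays, 9.38 to 9.61 on the Nx D arrays and 9.38 to 9.72 on the Nx P arrays, and its part in the members' pattern was not tested.

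**Figure D2:**
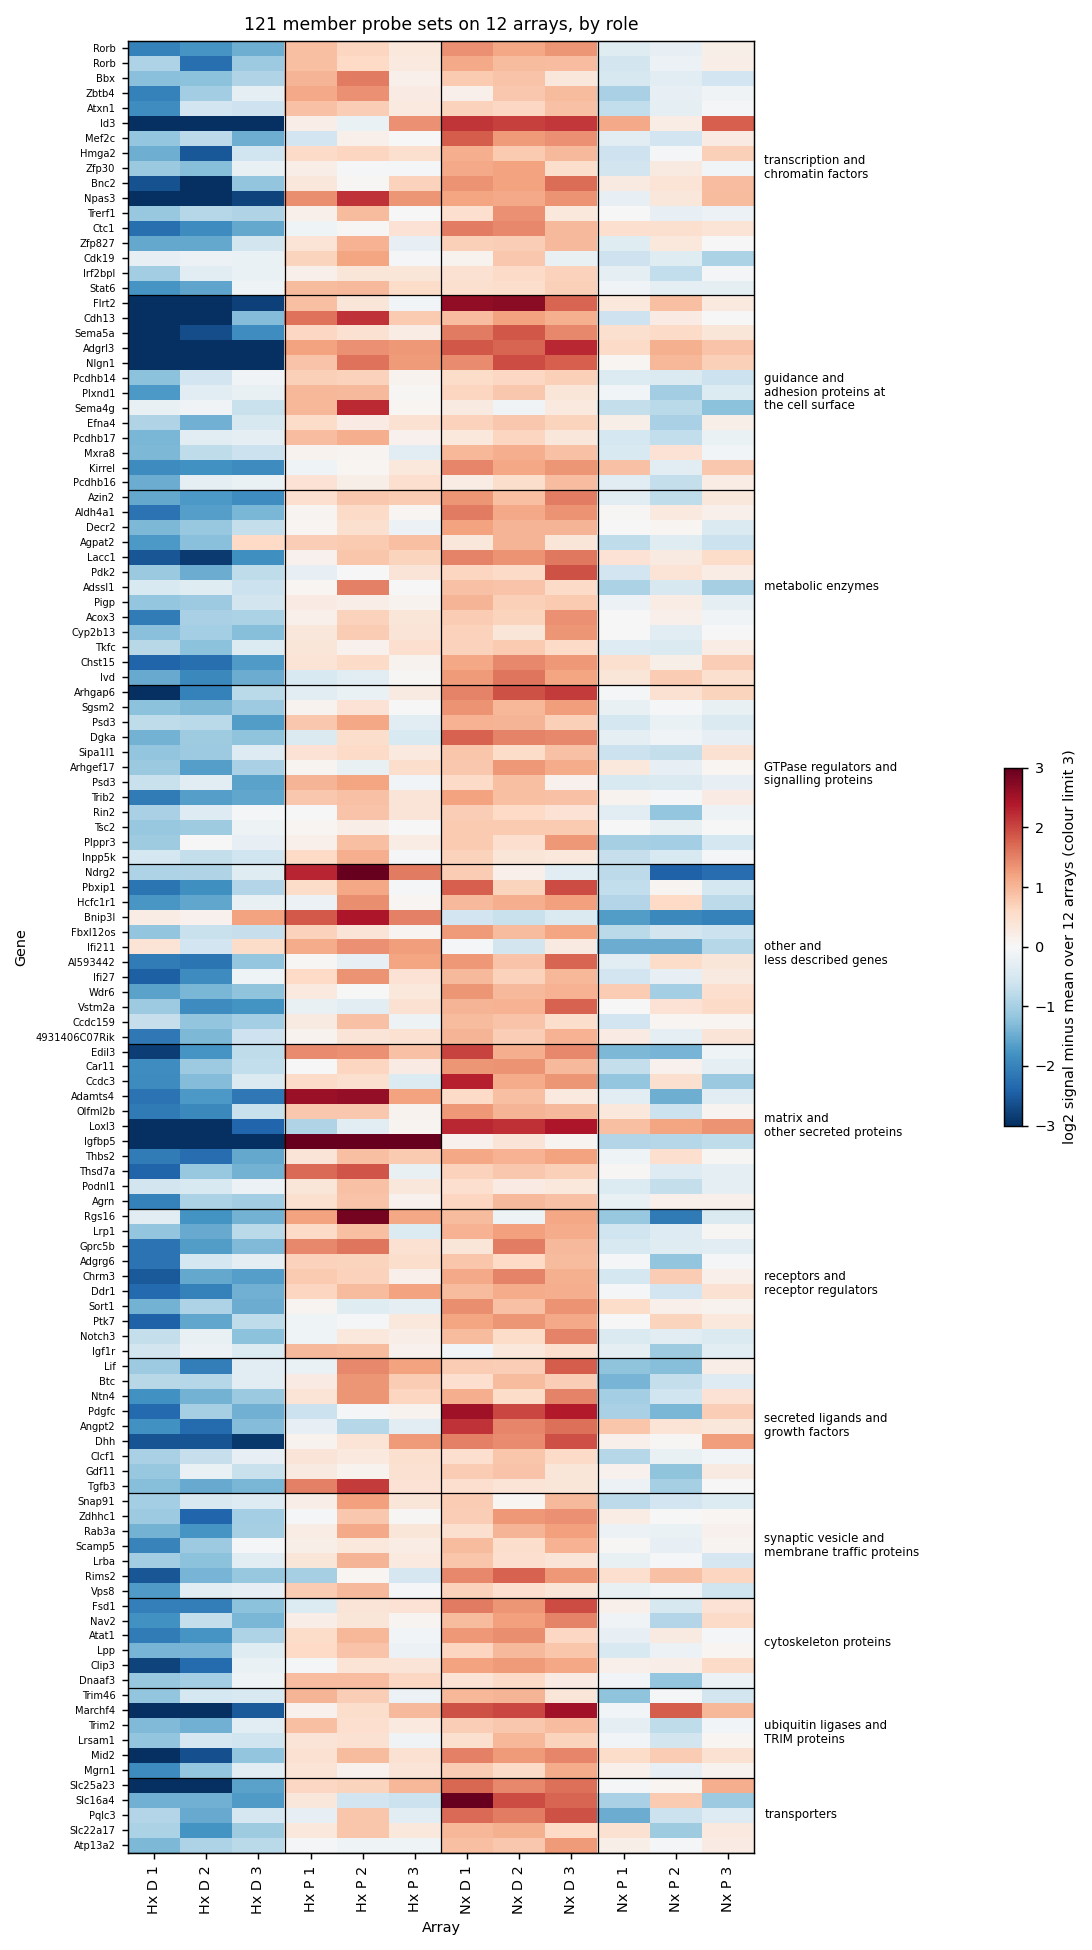
Log2 signal of the 121 member probe sets (rows, grouped by role) on the 12 arrays (columns: Hx D, Hx P, Nx D, Nx P), relative to each row's mean over the arrays, with the colour scale limited at 3. The Hx D columns are blue and the Nx D columns red for nearly every row. Some rows, among them Bnip3l, Ndrg2 and Ifi211, are instead bluest in the Nx P columns.

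Promoter windows of 4 leading members are shown to give the sequence at the start of genes whose signals moved together here. The windows run from 250 bases before to 50 bases after the gene start in RefSeq (GRCm38.p6), 5′ to 3′ on the gene's strand. Capitals mark matches on either strand to 6 short motifs. The letters GGGCGG define the GC box to which Sp1 binds. A box with the letters TATAAA positions the polymerase in some promoters. The CCAAT box is recognised by the factor NF-Y. The E-box searched was CACGTG, to which MYC and related proteins bind. For the antioxidant response element, the site of NRF2, the pattern was TGACNNNGC. The AP-1 site, bound by FOS and JUN proteins, was TGANTCA.
Ndrg2 (chr14:51913955-51914254, - strand): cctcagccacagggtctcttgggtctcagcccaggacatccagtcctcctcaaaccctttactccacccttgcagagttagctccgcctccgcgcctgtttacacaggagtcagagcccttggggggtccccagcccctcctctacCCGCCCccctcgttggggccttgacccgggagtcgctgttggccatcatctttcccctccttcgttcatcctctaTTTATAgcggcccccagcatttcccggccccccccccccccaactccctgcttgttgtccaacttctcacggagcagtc
Rgs16 (chr1:153740103-153740402, + strand): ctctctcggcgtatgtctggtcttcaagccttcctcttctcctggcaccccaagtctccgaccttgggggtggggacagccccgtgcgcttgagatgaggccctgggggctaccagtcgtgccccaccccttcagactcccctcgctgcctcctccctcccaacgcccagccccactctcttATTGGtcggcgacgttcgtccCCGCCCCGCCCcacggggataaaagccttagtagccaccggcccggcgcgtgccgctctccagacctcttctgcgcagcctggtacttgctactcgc
Flrt2 (chr12:95691976-95692275, + strand): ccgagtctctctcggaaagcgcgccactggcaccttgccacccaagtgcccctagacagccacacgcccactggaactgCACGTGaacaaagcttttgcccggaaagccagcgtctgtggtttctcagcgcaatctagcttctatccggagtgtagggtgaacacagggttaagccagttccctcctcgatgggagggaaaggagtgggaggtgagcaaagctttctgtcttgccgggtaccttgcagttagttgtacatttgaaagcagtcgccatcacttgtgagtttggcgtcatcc
Lif (chr11:4257318-4257617, + strand): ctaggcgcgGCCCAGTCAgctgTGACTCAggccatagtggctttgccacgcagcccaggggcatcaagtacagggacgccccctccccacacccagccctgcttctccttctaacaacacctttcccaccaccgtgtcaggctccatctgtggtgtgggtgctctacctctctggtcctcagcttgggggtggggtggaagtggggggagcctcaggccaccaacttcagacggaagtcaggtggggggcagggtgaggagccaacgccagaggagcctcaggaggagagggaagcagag
The Ndrg2 window held 1 TATA box and 1 GC box, that of Rgs16 2 GC boxes and 1 CCAAT box, that of Flrt2 1 E-box, and that of Lif 1 antioxidant response element and 1 AP-1 site. A match of letters is only a description and says nothing about binding.

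RefSeq promoter windows were matched for 97 of the 119 genes. Their median GC content was 62.3%, compared with 57.0% for 15691 measured genes and 52.7% for all 27025 windows. A GC box occurred in 59.8% of the member windows, in 48.2% of measured and in 35.9% of all windows. The TATA box was less frequent, with 6.19% against 13.1% and 14.2%, as was the CCAAT box, with 27.8% against 38.8% and 37.9%. The core of the hypoxia response element (ACGTG, which every E-box also contains) occurred in 20.6% of member windows, 21.4% of measured and 19.7% of all windows, and the antioxidant response element in 15.5%, 13.3% and 12.5%. The AP-1 site occurred in 3.09% of member windows, against 7.27% and 7.93%. No member window held the heat shock element, found in 0.529% of all windows. Members were brighter than most probe sets, and these promoter shares were not matched for signal or tested.

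The secreted ligands comprised Pdgfc, Lif, Btc, Ntn4, Angpt2, Dhh, Clcf1, Gdf11 and Tgfb3. Lif, a cytokine of the interleukin-6 family that sustains stem cell self-renewal in mouse embryonic cells, had signals of 6.02, 5.05 and 6.80 on the Hx D arrays against 6.93, 8.57 and 8.34 on the Hx P arrays, and 7.89, 7.86 and 8.93 on the Nx D arrays against 5.90, 5.84 and 7.33 on the Nx P arrays. The 3 treated arrays lay apart from the PBS arrays at each oxygen level, but by only 0.13 in hypoxia, between 6.80 on Hx D and 6.93 on Hx P. The difference was -1.99 in hypoxia and 1.87 in normoxia. Clcf1, a second ligand of that family, differed by -1.03 and 1.03 in the same order, and these were the only members among 13 measured ligand and receptor genes of the family.

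Pdgfc, a ligand of the PDGF alpha receptor, had the largest normoxia difference of all members. Its signals were 4.50, 5.84 and 5.40 on the Hx D arrays against 6.18, 6.80 and 6.95 on the Hx P arrays, and 9.38, 8.85 and 9.22 on the Nx D arrays against 5.88, 5.46 and 7.58 on the Nx P arrays. All 3 Nx D arrays stood at least 1.28 above the highest Nx P array, whereas the hypoxic groups were separated by 0.34. The epidermal growth factor receptor ligand Btc read 9.03, 9.02 and 9.52 on the Hx D arrays against 10.12, 11.18 and 10.63 on the Hx P arrays, and 10.36, 10.80 and 10.61 on the Nx D arrays against 8.48, 9.15 and 9.47 on the Nx P arrays, so that Hx P and Nx D formed a higher range that overlapped and Hx D and Nx P a lower one. Its differences were -1.45 in hypoxia and 1.56 in normoxia, and those of Pdgfc were -1.40 and 2.85.

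Angpt2, which destabilises vessels through the Tie2 receptor, gave 9.00, 8.51 and 9.52 on the Hx D arrays against 10.57, 9.96 and 10.51 on the Hx P arrays, and 12.98, 12.27 and 12.47 on the Nx D arrays against 11.64, 11.23 and 11.15 on the Nx P arrays. Every hypoxic array was below every normoxic one, and the drug difference was -1.33 in hypoxia and 1.23 in normoxia. Dhh, a hedgehog ligand, gave 6.85, 6.83 and 6.53 on the Hx D arrays against 9.54, 9.84 and 10.70 on the Hx P arrays, and 10.94, 10.85 and 11.36 on the Nx D arrays against 9.59, 9.48 and 10.69 on the Nx P arrays, and its Hx D arrays were lower than those of any other group, with differences of -3.29 and 1.13. Tgfb3, a transforming growth factor beta ligand, gave 8.66, 8.43 and 8.55 on the Hx D arrays against 11.43, 12.02 and 10.37 on the Hx P arrays, and 10.43, 10.33 and 10.30 on the Nx D arrays against 9.76, 8.94 and 9.94 on the Nx P arrays. Its 2 highest values were in Hx P, and it differed by -2.73 in hypoxia and 0.81 in normoxia. Gdf11, a ligand of the same superfamily, differed by -0.94 and 0.93, and the laminin-binding netrin Ntn4 by -2.25 and 1.43.

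**Figure D3:**
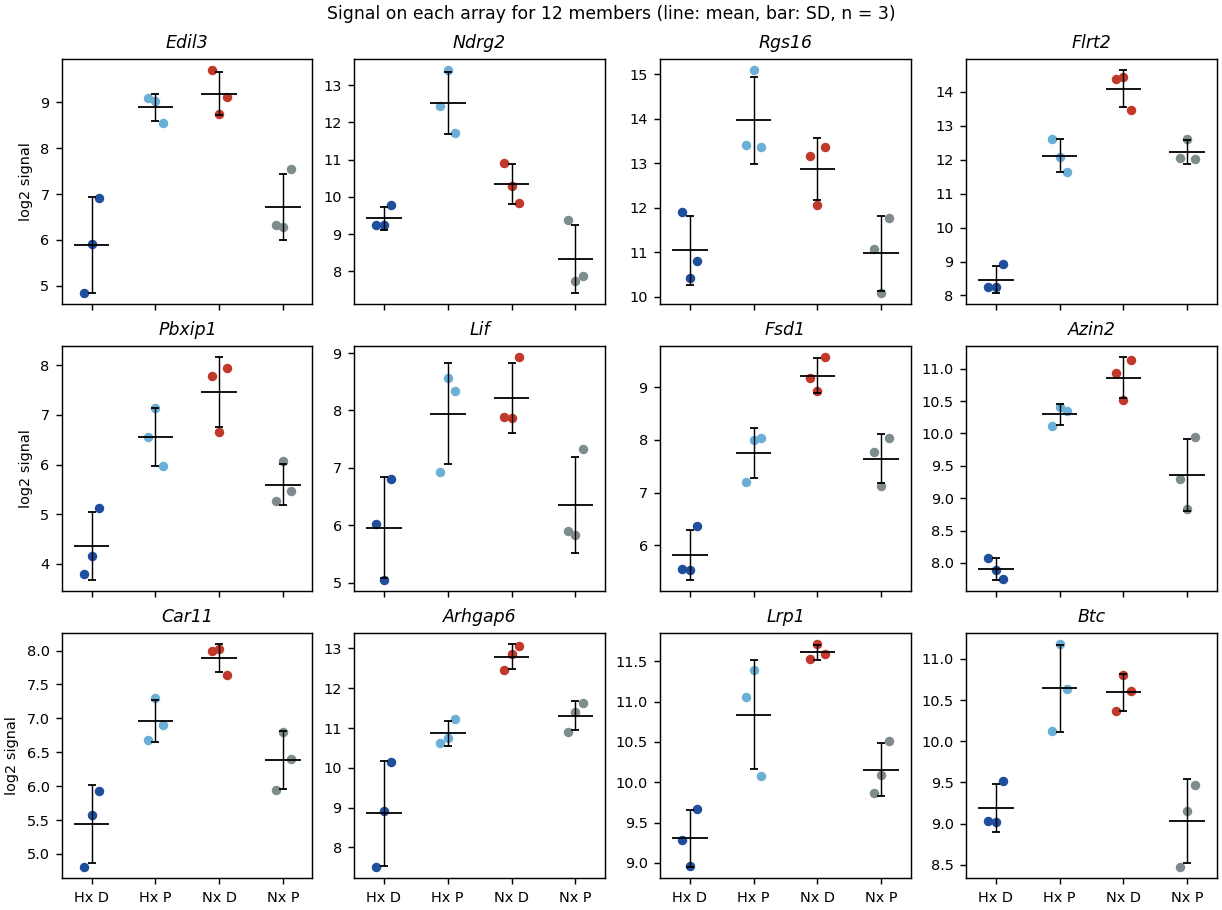
Log2 signal on each array (points, 3 a group), with the group mean (line) and SD (bar), for the 12 members whose smaller difference was largest. In each panel the Hx D points lie below the Hx P points and the Nx D points above the Nx P points, as the rule required. The Ndrg2 panel has its highest points in Hx P, from 11.7 to 13.4.

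Matrix and other secreted proteins comprised 11 genes, among them the members with the largest smaller difference and the lowest value in hypoxia. Edil3, a secreted ligand of integrins, gave 4.84, 5.90 and 6.92 on the Hx D arrays against 9.09, 9.03 and 8.54 on the Hx P arrays, and 9.70, 8.75 and 9.12 on the Nx D arrays against 6.32, 6.27 and 7.55 on the Nx P arrays. The Hx D values were spread widely (SD 1.04) and did not reach those of Hx P, and the Nx D values were all above those of Nx P. With differences of -3.00 and 2.48 it was the member with the largest smaller difference. Igfbp5, which binds insulin-like growth factors in the extracellular space, gave 6.75, 5.36 and 5.75 on the Hx D arrays against 15.04, 15.22 and 13.17 on the Hx P arrays, and 10.04, 10.28 and 9.98 on the Nx D arrays against 9.02, 9.04 and 9.14 on the Nx P arrays. Its Hx P arrays were higher than those of all other groups and its Hx D arrays lower, a difference of -8.53 in hypoxia, whereas in normoxia the difference was 1.03. The signals of Adamts4, a protease that cleaves aggrecan, were 6.93, 7.43 and 7.00 on the Hx D arrays against 11.73, 11.78 and 10.35 on the Hx P arrays, and 9.73, 10.06 and 9.43 on the Nx D arrays against 8.83, 7.68 and 8.83 on the Nx P arrays. Its differences were -4.17 in hypoxia and 1.30 in normoxia, and here too Hx P held the highest values.

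Loxl3, an amine oxidase that crosslinks collagen, gave 7.35, 8.04 and 8.69 on the Hx D arrays against 10.16, 10.74 and 11.16 on the Hx P arrays, and 13.34, 13.26 and 13.50 on the Nx D arrays against 11.99, 12.26 and 12.42 on the Nx P arrays. Its hypoxic arrays were all below the normoxic ones, and the drug difference was -2.66 in hypoxia and 1.14 in normoxia. Thbs2, a thrombospondin that restrains angiogenesis, gave 12.28, 12.10 and 12.86 on the Hx D arrays against 14.78, 15.29 and 15.17 on the Hx P arrays, and 15.55, 15.44 and 15.60 on the Nx D arrays against 14.27, 14.90 and 14.42 on the Nx P arrays. Hx D was the lowest group, and the Hx P and Nx P ranges overlapped, and the drug difference was -2.67 in hypoxia and 1.00 in normoxia. The carbonic anhydrase-related protein Car11 gave 4.81, 5.58 and 5.93 on the Hx D arrays against 6.68, 7.30 and 6.91 on the Hx P arrays, and 7.99, 8.02 and 7.65 on the Nx D arrays against 5.94, 6.80 and 6.40 on the Nx P arrays. Its Hx P and Nx P ranges overlapped, and the differences were -1.52 and 1.51. The remaining secreted members were Thsd7a (-2.79 in hypoxia, 0.95 in normoxia), the olfactomedin-domain protein Olfml2b (-2.15, 1.18), the proteoglycan agrin (Agrn; -1.84, 0.80), Ccdc3 (-1.41, 2.19) and Podnl1 (-0.92, 0.82). Podnl1 was the 1 member whose mean signal was below the 30th percentile of all probe sets. Of 37 measured genes in a list of matrix and collagen genes, Thbs2 was the only member, and with doranidazole in hypoxia 15 were lower and 3 higher, where 15.1% of all probe sets were lower and 12.6% higher.

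Guidance and adhesion proteins at the cell surface numbered 13. Flrt2, which binds latrophilins and UNC5 receptors, gave 8.24, 8.24 and 8.92 on the Hx D arrays against 12.62, 12.08 and 11.65 on the Hx P arrays, and 14.39, 14.43 and 13.47 on the Nx D arrays against 12.04, 12.62 and 12.02 on the Nx P arrays. Its Hx D arrays were below every other array, and the Hx P and Nx P ranges overlapped. Flrt2 thus differed by -3.65 in hypoxia and 1.87 in normoxia. A latrophilin, Adgrl3, gave 5.90, 6.08 and 7.30 on the Hx D arrays against 11.70, 11.86 and 11.79 on the Hx P arrays, and 12.36, 12.24 and 12.74 on the Nx D arrays against 11.07, 11.55 and 11.35 on the Nx P arrays, and the synaptic adhesion protein neuroligin 1 (Nlgn1) gave 5.29, 5.77 and 5.37 on the Hx D arrays against 9.90, 10.67 and 10.32 on the Hx P arrays, and 10.46, 11.00 and 10.83 on the Nx D arrays against 9.11, 10.04 and 9.75 on the Nx P arrays. In both, Hx D lay far below the other groups, and Nx D was the highest or overlapped Hx P. Their differences were -5.36 in hypoxia and 1.13 in normoxia for Adgrl3, and -4.82 and 1.13 for Nlgn1. Among 15 measured FLRT, latrophilin, teneurin and UNC5 genes, a family picked after the members were known, Flrt2 and Adgrl3 were the only members, 7 were lower and 1 higher with doranidazole in hypoxia, and 1 was higher in normoxia. Over all probe sets the shares were 15.1%, 12.6% and 1.29%.

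Cdh13, a cadherin held in the membrane by a lipid anchor, gave 9.30, 9.35 and 11.09 on the Hx D arrays against 14.01, 14.57 and 13.18 on the Hx P arrays, and 13.32, 13.61 and 13.45 on the Nx D arrays against 11.78, 12.64 and 12.37 on the Nx P arrays. It differed by -4.0 in hypoxia and 1.19 in normoxia, the gap between the hypoxic groups was 2.08, and the Hx D 3 value was the highest of the treated ones. Among 40 measured axon guidance and cell adhesion genes it was the only member. With the drug, 15 of the 40 were lower and 5 higher in hypoxia, against 2 higher and 0 lower in normoxia. Over all probe sets 15.1% were lower and 12.6% higher in hypoxia, and 1.29% were higher and 0.293% lower in normoxia. The semaphorins Sema5a (-2.96 in hypoxia, 1.14 in normoxia) and Sema4g (-1.42, 1.07), the semaphorin receptor Plxnd1 (-1.42, 1.12), the ephrin Efna4 (-1.35, 0.93), the immunoglobulin-domain proteins Kirrel (-1.94, 0.85) and Mxra8 (-0.88, 1.03) were also members.

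Among 20 measured beta protocadherins, homophilic adhesion proteins encoded in a single cluster, 3 were members. Pcdhb14 gave 5.15, 5.82 and 6.28 on the Hx D arrays against 7.12, 7.08 and 6.49 on the Hx P arrays, and 6.95, 7.00 and 7.11 on the Nx D arrays against 5.97, 5.97 and 5.75 on the Nx P arrays. Hx D 3 came within 0.21 of the lowest Hx P array. The differences were -1.14 and 1.12 for Pcdhb14, -1.39 in hypoxia and 0.92 in normoxia for Pcdhb17, and -1.02 and 0.83 for Pcdhb16. In the whole cluster 7 genes were lower with doranidazole in hypoxia and none was higher, none passed the threshold in normoxia, and the median differences were -0.27 and 0.16. Over all probe sets the shares were 15.1% lower and 12.6% higher in hypoxia, and 1.29% higher and 0.293% lower in normoxia. The count of 0 in normoxia is thus near the background. Pcdhb16 and Pcdhb17 are neighbours on chromosome 18 and Pcdhb14 lies 1 measured gene away; because these genes are near-identical in part, whether their probes tell them apart was not tested.

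Receptors and their regulators numbered 10. Rgs16, which shortens signalling by G protein-coupled receptors, gave 11.91, 10.43 and 10.80 on the Hx D arrays against 13.42, 15.09 and 13.38 on the Hx P arrays, and 13.17, 12.07 and 13.37 on the Nx D arrays against 11.07, 10.09 and 11.78 on the Nx P arrays. Hx P held the highest value and Nx P the lowest, and the Hx D and Nx P ranges overlapped, and the drug difference was -2.92 in hypoxia and 1.89 in normoxia. Lrp1, an endocytic receptor for many matrix ligands, gave 9.29, 8.96 and 9.67 on the Hx D arrays against 11.05, 11.39 and 10.08 on the Hx P arrays, and 11.53, 11.71 and 11.59 on the Nx D arrays against 9.87, 10.09 and 10.52 on the Nx P arrays, and its Nx D arrays were close together (SD 0.09) while the Hx P arrays were spread (SD 0.68). It differed by -1.53 in hypoxia and 1.45 in normoxia. Lrp1 and the transcription factor gene Stat6, another member, are adjacent on chromosome 10. Notch3 gave 3.90, 4.39 and 3.38 on the Hx D arrays against 4.48, 4.93 and 4.82 on the Hx P arrays, and 5.56, 5.17 and 6.11 on the Nx D arrays against 4.17, 4.29 and 4.19 on the Nx P arrays, and its difference of -0.85 in hypoxia, against 1.40 in normoxia, rested on a gap of 0.09.

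The other receptors were the collagen receptor kinase Ddr1 (-2.87 in hypoxia, 1.10 in normoxia), the orphan receptor Gprc5b (-2.91, 1.35), the muscarinic receptor Chrm3 (-2.45, 1.11), the pseudokinase Ptk7, which acts in planar cell polarity (-1.63, 0.87), the adhesion receptor Adgrg6 (-1.63, 1.22), the sorting receptor sortilin (Sort1; -1.08, 0.94) and the insulin-like growth factor receptor Igf1r (-1.07, 0.80). Igf1r and Igfbp5 were the only members among 11 measured genes for insulin-like growth factors, their receptors and binding proteins, a family picked after the members were known. In this family 6 genes were lower and 0 higher with doranidazole in hypoxia, and 1 was higher in normoxia. Over all probe sets the shares were 15.1%, 12.6% and 1.29%.

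Transcription and chromatin factors formed the most numerous group, with 16 genes and 17 probe sets. Id3, which blocks DNA binding by basic helix-loop-helix factors, gave 6.88, 8.01 and 7.87 on the Hx D arrays against 11.41, 10.99 and 12.58 on the Hx P arrays, and 13.34, 13.26 and 13.33 on the Nx D arrays against 12.34, 11.43 and 12.99 on the Nx P arrays. The 3 Hx D arrays lay below every other array, and the PBS ranges overlapped. Id3 thus differed by -4.07 in hypoxia and 1.06 in normoxia. Rorb, an orphan nuclear receptor, was read by 2 probe sets with differences of -2.37 and -2.02 in hypoxia and 1.42 and 1.17 in normoxia. Npas3, a basic helix-loop-helix factor of brain development, gave 5.75, 5.69 and 6.39 on the Hx D arrays against 10.56, 11.32 and 10.48 on the Hx P arrays, and 10.35, 10.29 and 10.50 on the Nx D arrays against 8.92, 9.50 and 10.10 on the Nx P arrays. It differed by -4.84 and 0.87; here the Nx D and Hx P ranges overlapped, and Nx P 3 came within 0.19 of the lowest Nx D array.

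Hmga2, an architectural chromatin protein active in fetal and tumour cells, gave 8.79, 7.72 and 9.68 on the Hx D arrays against 10.83, 10.91 and 10.73 on the Hx P arrays, and 11.36, 11.05 and 11.25 on the Nx D arrays against 9.63, 10.22 and 10.98 on the Nx P arrays. Its differences were -2.09 and 0.94, and in normoxia its groups were separated by only 0.07. Other members of this role were Bnc2 (-2.66 in hypoxia, 0.88 in normoxia), Bbx (-2.04, 1.12), Zbtb4 (-2.03, 1.08), the telomere-replication factor Ctc1 (-2.01, 0.86), the interleukin-4 signal transducer Stat6 (-1.98, 0.80), Atxn1 (-1.65, 1.07), Zfp827 (-1.61, 0.83) and Trerf1 (-1.34, 0.87). The myocyte enhancer factor Mef2c differed by -0.99 in hypoxia and 1.70 in normoxia. Zfp30 (-0.91, 1.08), the Mediator kinase Cdk19 (-0.82, 0.87) and Irf2bpl (-0.81, 0.92) were near the limit in hypoxia. Of 22 measured stem cell genes, Id3 was the only member, 13 were lower and 0 higher with doranidazole in hypoxia, and 1 was lower in normoxia. Of 26 measured TGF-beta and BMP response genes, Id3 and Tgfb3 were members, and 9 were lower and 2 higher in hypoxia, with none past the threshold in normoxia. Both lists stand against 15.1% of all probe sets lower and 12.6% higher in hypoxia. In normoxia the shares were 1.29% higher and 0.293% lower.

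GTPase regulators and signalling proteins comprised 11 genes. Arhgap6, a GTPase-activating protein, gave 7.51, 8.92 and 10.15 on the Hx D arrays against 10.63, 10.76 and 11.23 on the Hx P arrays, and 12.45, 12.87 and 13.07 on the Nx D arrays against 10.90, 11.41 and 11.62 on the Nx P arrays. The Hx D arrays were spread (SD 1.32), with replicate 3 the highest, and the drug difference was -2.01 in hypoxia and 1.48 in normoxia. Tsc2, the GTPase-activating protein that restrains mTORC1, gave 10.73, 10.80 and 11.73 on the Hx D arrays against 11.94, 12.07 and 11.86 on the Hx P arrays, and 12.66, 12.67 and 12.67 on the Nx D arrays against 11.85, 11.65 and 11.88 on the Nx P arrays. It differed by -0.87 and 0.87; in normoxia the groups were tight and 0.78 apart, and in hypoxia Hx D 3 was 0.13 below the lowest Hx P array. The others were the pseudokinase Trib2 (-2.46 in hypoxia, 0.90 in normoxia), the diacylglycerol kinase Dgka (-1.11, 1.78), the Rab regulator Sgsm2 (-1.40, 1.36), the exchange factor Arhgef17 (-1.38, 1.03), the Rap regulator Sipa1l1 (-1.31, 1.05), the Rab5 effector Rin2 (-0.88, 1.14), Plppr3 (-0.87, 1.71), the inositol phosphatase Inpp5k (-1.17, 0.85) and the ARF6 exchange factor Psd3, whose 2 probe sets differed by -1.62 and -1.57 in hypoxia and by 1.32 and 0.92 in normoxia.

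Metabolic enzymes numbered 13. Azin2, an antizyme inhibitor that raises polyamine synthesis, gave 8.08, 7.89 and 7.75 on the Hx D arrays against 10.11, 10.41 and 10.36 on the Hx P arrays, and 10.93, 10.52 and 11.14 on the Nx D arrays against 9.29, 8.83 and 9.94 on the Nx P arrays. With differences of -2.39 and 1.51, the 4 groups were in the order Hx D, Nx P, Hx P and Nx D, and Hx P differed from Nx P by less than either drug difference. Mitochondrial and peroxisomal enzymes of amino acid and fatty acid breakdown were Aldh4a1 of proline catabolism (-1.98 in hypoxia, 1.19 in normoxia), Ivd of leucine catabolism (-1.40, 0.83), Acox3 (-1.74, 0.91) and Decr2 (-1.18, 1.21). Pdk2, a kinase that switches off pyruvate dehydrogenase, differed by -1.17 and 1.03. The rest were Lacc1 (-2.97, 1.05), the sulfotransferase Chst15 (-2.48, 0.84), Agpat2 of phospholipid synthesis (-1.60, 1.16), Adssl1 of purine synthesis (-1.01, 1.58), Tkfc (-1.16, 0.87), Pigp of glycolipid anchor synthesis (-1.12, 0.91) and Cyp2b13 (-1.68, 0.90), a cytochrome P450 with close paralogues.

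Among 5 transporters, Slc25a23, a mitochondrial carrier of ATP and phosphate, gave 3.87, 4.13 and 5.73 on the Hx D arrays against 7.94, 8.00 and 8.33 on the Hx P arrays, and 9.04, 8.77 and 8.97 on the Nx D arrays against 7.27, 7.38 and 8.41 on the Nx P arrays. The Nx P 3 and Hx D 3 values were more than 1 unit above those of their fellows, and the drug difference was -3.51 in hypoxia and 1.24 in normoxia. Slc16a4, a member of the monocarboxylate transporter family, gave 4.72, 4.71 and 4.44 on the Hx D arrays against 6.49, 5.57 and 5.51 on the Hx P arrays, and 9.17, 8.12 and 7.90 on the Nx D arrays against 5.19, 6.94 and 5.06 on the Nx P arrays, and its Nx D arrays were higher than all others, with a normoxia difference of 2.66 against -1.23 in hypoxia. Pqlc3 differed by -1.05 in hypoxia and 2.56 in normoxia, Slc22a17, a receptor for lipocalin 2, by -1.75 and 1.00, and the lysosomal polyamine exporter Atp13a2 by -0.92 and 0.86.

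Cytoskeleton proteins were Fsd1, Nav2, Atat1, Lpp, Clip3 and Dnaaf3. Fsd1, a microtubule-associated protein, gave 5.56, 5.53 and 6.37 on the Hx D arrays against 7.20, 8.00 and 8.04 on the Hx P arrays, and 9.16, 8.92 and 9.57 on the Nx D arrays against 7.76, 7.12 and 8.03 on the Nx P arrays. Its Hx P and Nx P ranges overlapped, with Nx D above and Hx D below them, and the drug difference was -1.92 in hypoxia and 1.58 in normoxia. For the alpha-tubulin acetyltransferase Atat1 the differences were -2.10 in hypoxia and 1.12 in normoxia, and for the microtubule-binding protein Clip3 they were -2.00 and 0.91. Those of the axon growth protein Nav2 were -1.52 and 1.36, of the focal adhesion protein Lpp -1.48 and 1.00, and of the dynein assembly factor Dnaaf3 -1.59 and 0.89.

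Synaptic vesicle and membrane traffic proteins were the active zone protein Rims2 (-1.22 in hypoxia, 0.83 in normoxia), its partner Rab3a (-1.96, 1.00), the clathrin assembly protein Snap91 (-1.22, 1.19), Scamp5 (-1.29, 0.88), the palmitoyltransferase Zdhhc1 (-1.75, 1.04), Lrba (-1.41, 0.84) and the endosomal tether Vps8 (-1.33, 0.83). Ubiquitin ligases and TRIM proteins were Marchf4, Mid2, Trim2, Trim46, Lrsam1 and Mgrn1. Marchf4, a membrane-bound ligase, gave 5.57, 7.35 and 8.06 on the Hx D arrays against 10.73, 11.12 and 11.57 on the Hx P arrays, and 12.50, 12.60 and 13.12 on the Nx D arrays against 10.52, 12.40 and 11.59 on the Nx P arrays. Its differences were -4.15 in hypoxia and 1.23 in normoxia. The gap in normoxia was 0.09, since Nx P 2 almost reached the Nx D arrays, and that in hypoxia was 2.67. The midline-related protein Mid2 differed by -3.24 and 0.83, Trim2 by -1.58 and 1.19, Trim46 by -1.25 and 1.40, Mgrn1 by -1.44 and 0.81, and Lrsam1 by -1.0 and 0.91.

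The last 12 genes had other or less described roles. Ndrg2, a growth-restraining gene of astrocytes, gave 9.24, 9.25 and 9.78 on the Hx D arrays against 12.43, 13.40 and 11.72 on the Hx P arrays, and 10.92, 10.30 and 9.84 on the Nx D arrays against 9.37, 7.73 and 7.88 on the Nx P arrays. The hypoxic PBS arrays were the highest and the Hx D arrays lay just below the Nx D arrays. Ndrg2 thus differed by -3.09 in hypoxia and 2.03 in normoxia. Bnip3l, a mitophagy receptor known to be induced by hypoxia, gave 13.08, 12.97 and 14.04 on the Hx D arrays against 14.68, 15.26 and 14.36 on the Hx P arrays, and 12.27, 12.17 and 12.42 on the Nx D arrays against 11.16, 10.90 and 10.82 on the Nx P arrays. All hypoxic arrays were above all normoxic ones, and within each oxygen level the drug shifted the signal by about the same amount in opposite directions (-1.41 in hypoxia, 1.32 in normoxia). Pbxip1, which binds PBX homeodomain proteins, gave 3.80, 4.16 and 5.11 on the Hx D arrays against 6.55, 7.14 and 5.97 on the Hx P arrays, and 7.77, 6.66 and 7.95 on the Nx D arrays against 5.26, 6.07 and 5.46 on the Nx P arrays. Its differences were -2.20 and 1.87, and its Hx P range overlapped that of Nx P.

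Ifi211 (-1.12 in hypoxia, 1.18 in normoxia) and Ifi27 (-2.29, 1.06) are interferon-inducible, and Ifi211 has close paralogues. None of 38 measured genes in a list of interferon-stimulated genes was a member. With 0.618% of all probe sets with 1 symbol being members, none is expected in a list of this size. Hcfc1r1 differed by -1.61 in hypoxia and 1.45 in normoxia, Wdr6 by -1.60 and 1.03, Vstm2a by -1.56 and 0.94, AI593442 by -2.15 and 1.10, Ccdc159 by -1.29 and 0.93, 4931406C07Rik by -1.68 and 0.82, and Fbxl12os by -1.23 and 1.81. Fbxl12os is annotated opposite Fbxl12, and whether its probes read only 1 strand was not tested.

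The oxygen difference averaged over both treatments, hypoxia minus normoxia, is built from the same 12 arrays. It equals the difference between Hx P and Nx P plus the mean of the hypoxia drug difference and the sign-turned normoxia drug difference, and the rule holds that mean at -0.8 or below. A member with no oxygen difference with PBS is thus at -0.8 or lower. The averaged difference also equals the difference between Hx D and Nx D minus that mean. A member with no oxygen difference with doranidazole is thus at 0.8 or higher, so the rule alone does not set the direction. The values are given as a description. In the fit over all probe sets (limma, Benjamini-Hochberg adjusted p under 0.05) 69 of the 121 members (57.0%) were lower in hypoxia, against 13.2% of all probe sets, and 3 (Bnip3l, Ndrg2 and Ifi211; 2.48%) were higher, against 8.71% of all. Neither count is read as a test, because the same 12 arrays chose the members. The median was -0.82 over the members and 0.05 over all probe sets, and 106 members had a negative value. Setting the median of each array equal gave a median drug difference in hypoxia over all probe sets of -0.03 in place of 0.09, with 75 lower and 3 higher members. Under quantile normalization and cyclic loess 61 were lower and 3 higher. Among all calls for the oxygen difference 39.8% were higher in hypoxia on the deposited values, 29.8% with equal medians, 48.6% after quantile normalization and 49.5% after cyclic loess.

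The Loxl3 value of -3.44 ± 0.22 (SE) was the lowest oxygen difference of the members, and its hypoxic arrays were below the normoxic ones with either treatment. Next came Id3 (-3.16 ± 0.31), Marchf4 (-3.06 ± 0.40), Flrt2 (-2.87 ± 0.23), Adgrl3 (-2.78 ± 0.22), Nlgn1 (-2.31 ± 0.19) and Angpt2 (-2.28 ± 0.20). In Id3, Flrt2, Adgrl3 and Nlgn1 the mean of the Hx P arrays minus that of the Nx P arrays was -0.59, -0.11, 0.46 and 0.66. In Loxl3, Marchf4 and Angpt2 it was -1.53, -0.36 and -0.99. The rule alone puts the oxygen difference with doranidazole below that with PBS, so nothing is read from these values. The Bnip3l value of 2.44 ± 0.20 (SE) was the highest, followed by Ndrg2 (1.63 ± 0.33) and Ifi211 (1.38 ± 0.21).

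**Figure D4:**
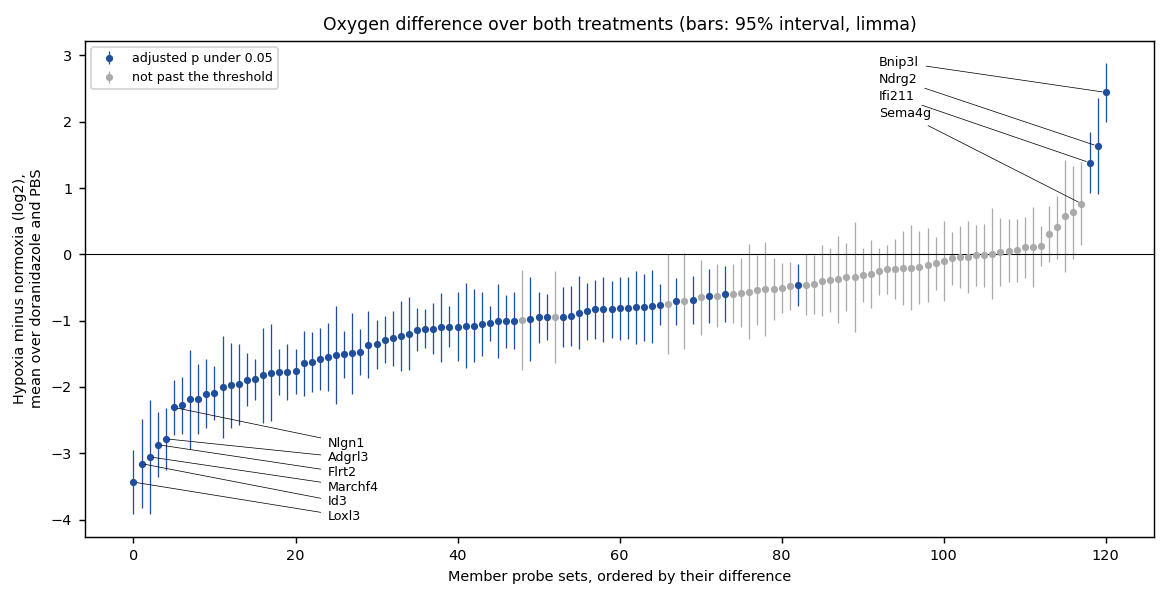
Oxygen difference of each member probe set (hypoxia minus normoxia, log2, mean over doranidazole and PBS, vertical axis), ordered from lowest to highest; bars are 95% intervals from limma and blue marks an adjusted p under 0.05. The values run from -3.44 (Loxl3) to 2.44 (Bnip3l), with 69 blue points below 0 and 3 above.

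Within each treatment the oxygen difference shares arrays with the rule, which favours low Hx D and high Nx D values as well as high Hx P and low Nx P values, and is given without a test. With doranidazole, 116 members had all Hx D arrays below all Nx D arrays, against 21.5% of all probe sets with 1 symbol, and the median difference was -2.30. With PBS, 51 members had all Hx P arrays above all Nx P arrays, against 9.5% of all, and the median was 0.60. Igfbp5 had the largest such difference, 5.41, and Loxl3 the lowest, -1.53. The same was read on the replicate left out of the choice, with replicates 1, 2 and 3 left out in turn. Hx P was above Nx P for 74.8%, 71.9% and 59.0% of the chosen probe sets, compared with 46.8%, 49.3% and 50.2% of all. Hx D was below Nx D for 97.6%, 97.8% and 89.0%, compared with 47.2%, 46.7% and 47.0%. The rule on the other replicates still favours these directions, so the shares are descriptions.

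Members of 3 stress and oxygen lists were also looked up, where 0.618% of all probe sets with 1 symbol are members, so that none is expected in a list of this size and nothing is read from its absence. Of 37 measured genes in a list of hypoxia-induced genes none was a member. The list does not hold every such gene: the member Bnip3l, known to be induced by hypoxia, is not in it. Of the 37, 26 were higher in Hx P than in Nx P, where 1.46% of all probe sets were. With doranidazole in hypoxia 22 were lower and 2 higher, against 15.1% and 12.6%. None of 28 measured p53 target genes was a member, and 16 were higher with doranidazole in hypoxia and 14 in normoxia, against 12.6% and 1.29% of all probe sets. None of 28 measured NRF2 target genes was a member, and 26 were higher in hypoxia and 13 in normoxia, against the same shares.

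The genomic span of the members' genes in RefSeq (GRCm38.p6) had a median of 25.2 kb, compared with 28.8 kb for genes lowered in hypoxia, 24.0 kb for genes raised in normoxia and 17.8 kb for all measured genes, so that the median did not set the members apart from genes lowered in hypoxia. Very long genes made up more of them: 34 of 119 (28.6%) exceeded 100 kb, compared with 11.4% of all measured genes. The share was 19.7% among genes lowered in hypoxia, 17.4% among those raised in normoxia and 11.1% among those raised at both oxygen levels. Since members were brighter than most probe sets, the comparison was repeated on probe sets with a mean above the overall median. There, 17 of 231 probe sets for genes over 300 kb (7.36%) were members, against 0.669% to 1.68% in the 4 shorter classes. These genes were Cdh13, Nlgn1, Npas3, Adgrl3, Nav2, Lpp, Lrba, Psd3, Arhgap6, Edil3, Rims2, Chrm3, Sema5a, Thsd7a, Atxn1 and Bnc2. Over all 231 brighter probe sets of that class the median drug difference was -1.33 in hypoxia and 0.30 in normoxia, compared with -0.20 and -0.03 for genes up to 10 kb. The span was not used by the rule, but the drug differences of the members were, so the shares carry no test.

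**Figure D5:**
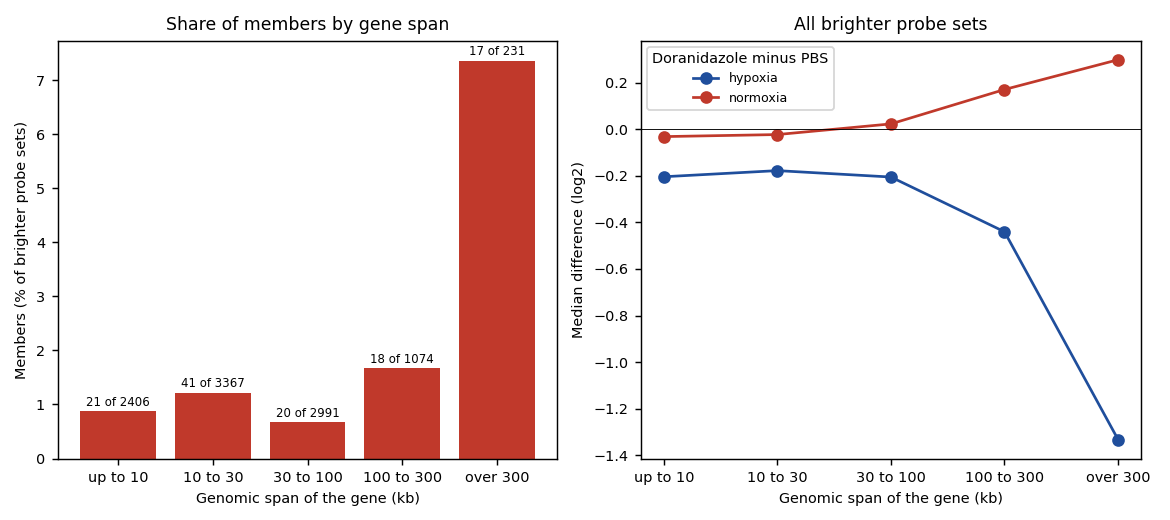
Left, members as a percentage of probe sets with a mean signal above the overall median, by genomic span of the gene in kb (bars, with counts above them). Right, median drug difference (log2) of all such probe sets in hypoxia (blue) and normoxia (red). Genes over 300 kb have the highest share, 7.36%, and median differences of -1.33 in hypoxia and 0.30 in normoxia.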

How the data were processed

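The authors deposited log2 signals of 22206 probe sets on 12 Clariom S Mouse arrays (biotin-labelled cDNA from 100 ng of total RNA), made with the Transcriptome Analysis Console per the labels. No source used here states how the signals were normalized. Among them, 19572 had 1 gene symbol in the platform annotation and 2634 had several or none and were not named. The deposited values were used without a filter. limma 3.58.1 (R 4.3.3) was fitted to the 4 groups of 3 arrays, with Benjamini-Hochberg adjustment over all 22206 probe sets and a threshold of 0.05. It was tested on simulated data first. Summaries used Python 3.11.15 and pandas 2.3.3. No comparison between groups was read as a test of the members, since the rule used all 12 arrays. The arrays left out of the choice were the only check on values that the choice did not read. According to the paper all arrays came from the same experiment. Deviations of same-numbered arrays correlated between 0.20 and 0.33 in normoxia and between -0.05 and -0.02 in hypoxia. Between Hx P and Nx P they correlated at -0.02, 0.26 and 0.36 for replicates 1, 2 and 3. Between Hx D and Nx D the values were 0.14, 0.03 and -0.01. What links same-numbered arrays was not tested. Alternatives were quantile, median and cyclic loess scaling, a filter on dim probe sets, other limma priors and weights, other limits in the rule, and leaving out each array. Every member is named with its differences, and array values are given for the 12 members with the largest smaller difference, for members of the 23 gene lists and for up to 8 more a role. The members, roles, families and lists were chosen with earlier results of these data known. No pair of the 12 arrays held identical values. Depth has no count on arrays, so precision is limited by the 3 arrays a group, and p-values cover the spread between those arrays, not that between experiments. Promoter windows and gene spans are from RefSeq (GRCm38.p6). The labels carry no scan dates or batches, so none was tested.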

Additional observations from a re-analysis of the deposited data

How the results depend on the processing

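None of the members' called oxygen differences changed sign under the alternatives. The balance of calls over all probe sets did turn: doranidazole in hypoxia gave 2798 higher and 3356 lower on the deposited values, and 3005 and 2865 after quantile normalization, and hypoxia against normoxia with PBS gave 324 and 115, but 654 and 778 without Hx P replicate 3, and with array weights the lower calls also outnumbered the higher. The number of probe sets meeting the rule was 204 with limits of 0.6 and 70 with limits of 1, and lay between 111 and 172 without 1 array. Members lower in hypoxia over both treatments numbered 61 to 78, and members higher 3 to 5 without 1 array (5 without Hx P replicate 3). The calls lost most often were those of Hmga2, Scamp5 and Notch3. With the replicate block (replicate number as a block) 69 members were lower, 67 of them shared with the fit without it. In normoxia, where same-numbered arrays deviated together, the replicate block on the 6 arrays of the comparison, chosen after seeing the data, gave 925 higher and 689 lower, and 108 members higher in place of 28. In the fit to all 12 arrays the block moved no other count by over 1.5 times except that of probe sets lower in hypoxia with PBS, 192 against 115 without it. The share of chosen probe sets with the same signs on the replicate left out lay between 71.8% and 95.9%.

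Counts over all probe sets were less stable. In normoxia, doranidazole against PBS gave 877 higher and 509 lower with array weights, 613 and 397 on the 6 normoxic arrays alone, 102 lower after cyclic loess, and 36 to 443 higher and 2 to 200 lower without 1 array. For hypoxia against normoxia with PBS, which was added after the data were seen, array weights gave 1039 higher and 1234 lower, the 6 PBS arrays alone 106 and 9, the replicate block 192 lower, and leaving out 1 array 137 to 654 higher and 10 to 778 lower. The cause was not tested. Signal near the array background limits what dim probe sets can show: 1 member lay below the 30th percentile.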

Other observations

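Of the 121 probe sets, 61 met the rule on all 15 of the alternative scalings and array sets tried (3 scalings and each of 12 arrays left out), and the least stable met it on 8. The members were spread over the genome, with the most on chromosome 17 (11 genes), followed by chromosomes 3 and 7 (10 each). The SD within a group, taken as the median over the members, was 0.51 in Hx D and 0.37 in Hx P, and 0.22 in Nx D and 0.34 in Nx P, compared with 0.32 in Hx D, 0.21 in Hx P, 0.20 in Nx D and 0.23 in Nx P over all probe sets with 1 symbol.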
